A study of Mus musculus with 7 samples.

Results

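The 10 genes described here make, clear, carry and read retinoic acid: Rdh10, Aldh1a2 and Aldh1a3 for synthesis, Cyp26a1 and Cyp26b1 for breakdown, the cytoplasmic binding proteins Crabp1 and Crabp2, and the nuclear receptors Rara, Rarb and Rarg. They were taken by gene name from the array's own probe annotation, which gave 10 of 36373 genes and 13 of 55681 probes. Transcripts were measured in forelimbs of C57/Bl6 mice, embryonic day 11.5. For 3 arrays the tissue was the microdissected AER, the apical ectodermal ridge, a rim of epithelium that signals to the distal limb. Posterior surface ectoderm of the limb gave 4 control arrays (Ectoderm). The groups shared strain and age, the labels name no mutation or treatment, and each replicate pooled tissue from 2 to 3 mice.

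Retinoic acid is a small lipid signal made from vitamin A. Retinol is oxidised to retinaldehyde, chiefly by RDH10, and retinaldehyde to retinoic acid by the ALDH1A enzymes, while CYP26 enzymes hydroxylate retinoic acid and so remove it. Inside the cell it is carried by CRABP proteins to receptors of the RAR family, which sit on DNA with RXR partners and switch target genes, among them Rarb and Cyp26a1 themselves. In the mouse limb bud retinoic acid is known mainly as a proximal signal, and loss of Cyp26b1, which clears it distally, is known to truncate the limb.

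Of the 10 genes, 2 were higher and 7 lower in AER than in Ectoderm, and 1 did not pass the test (limma's moderated test, Benjamini-Hochberg adjusted p below 0.05 over 20826 genes). Both breakdown enzymes were the genes that rose. All 3 synthesis enzymes, both binding proteins and the receptors Rara and Rarb fell, and Rarg did not pass. The background for these counts is 15.7% of all tested genes called in either direction, 7.03% of them called higher and 8.65% called lower in AER. For 9 of the 10 genes the values of the groups did not overlap, which held for 30.3% of all genes. The median difference of the 10 genes was -1.08 (log2), against -0.083 for all genes. All 10 passed the filter on dim probes, which asked for a signal well above background on at least 3 of 7 arrays. Aldh1a3 passed it at the minimum of 3 arrays and the other 9 genes were above background on all 7. Without AER replicate 3 or without Ectoderm replicate 4, 5 of the 10 genes passed, and without Ectoderm replicate 3 it was 8. Over all 20826 genes, 3275, 2199 and 2794 passed in these settings, against 3266 as reported. Ectoderm replicates 2 and 4 share a number in their file names, and whether they are separate pools could not be settled. With them averaged as 1 sample, 5 of the 10 genes passed, and 2267 of all 20826 genes.

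**Figure D1:**
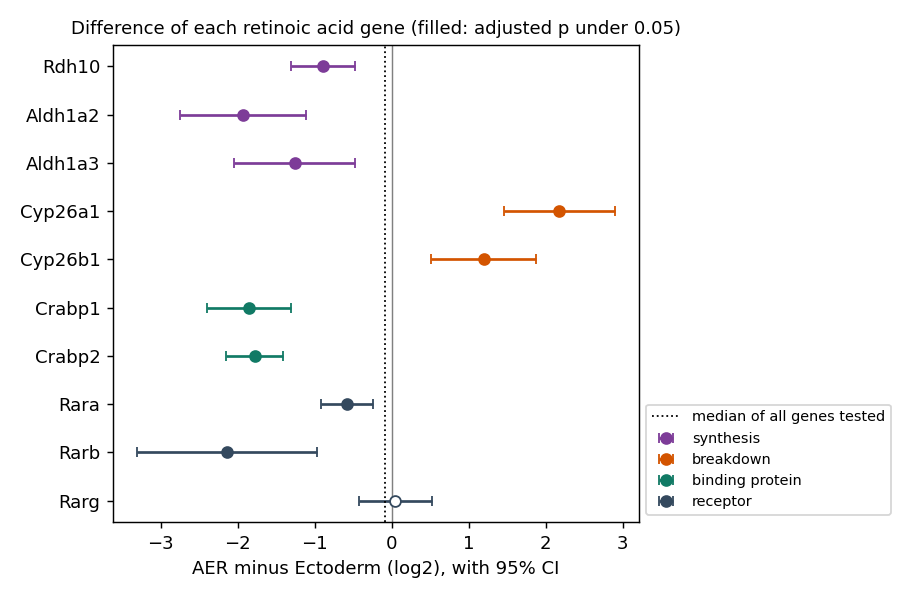
Difference between AER and Ectoderm for each of the 10 genes, on the log2 scale, with 95% confidence intervals. Points are coloured by role and filled where the adjusted p was below 0.05. Cyp26a1 and Cyp26b1 lie right of 0, 7 genes lie left of it, and the interval of Rarg spans it. The dotted line marks the median of all genes tested.

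The tissue labels were checked on marker genes. All 8 known AER genes, among them the ridge growth factor Fgf8, were higher in AER, and 11 of 12 surface epithelium genes were too. Limb mesenchyme genes were above background on every array, apart from Lum on 1 AER array, and 7 of 10 were lower in AER, and 5 muscle progenitor genes were tested and all were lower in AER. The summed signal of the surface epithelium genes spanned 7.47 to 7.61 in AER and 6.05 to 6.64 in Ectoderm (log2, relative to each array's 75th percentile). That of the mesenchyme genes spanned 7.65 to 7.84 in AER and 8.44 to 9.09 in Ectoderm, and that of the muscle genes -1.72 to -0.095 in AER and 3.99 to 4.77 in Ectoderm. These levels differed between the same arrays as the results below, and their part in those results was not tested. In bulk tissue such as this, fewer cells of a type and less RNA per cell cannot be told apart. Ectoderm replicate 3 stood apart from its group for Fgf8, which read 5.84, 6.43 and 6.54 on AER replicates 1 to 3 and -2.33, -1.42, 2.20 and -1.40 on Ectoderm replicates 1 to 4 (log2). No endothelial (5 tested), erythroid (4), macrophage (3) or neural crest (2) marker passed the test.

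The larger gain in AER, in the fit as reported, was in the breakdown enzyme gene Cyp26a1. This gene encodes a cytochrome P450 that hydroxylates retinoic acid and is itself a classic retinoic acid target. Its log2 signal, where 0 is the 75th percentile of the array, was 0.98, 0.67 and 1.10 on AER replicates 1 to 3, against -1.34, -1.78, -0.38 and -1.54 on Ectoderm replicates 1 to 4. Every AER array lay above every Ectoderm array, and Ectoderm replicate 3 was the nearest of its group to the AER. Cyp26a1 was 4.51-fold higher in AER (95% CI 2.74 to 7.43; log2 difference 2.17 ± 0.32, SE; adjusted p = 0.00206; 3 AER and 4 Ectoderm arrays, limma). Without Ectoderm replicate 3 the difference was 2.47 (adjusted p = 0.000122). It was 1.46 with normexp background correction (adjusted p = 0.00310) and 1.47 in the authors' processed values (0.00594). In the authors' values the gain of Cyp26b1 was the larger, at 1.695 (adjusted p = 0.00111).

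Cyp26b1, the CYP26 gene best known from the distal limb, was higher in AER too. Its log2 signal was 7.14, 6.98 and 7.41 on AER arrays, against 5.63, 5.71, 6.83 and 5.74 on Ectoderm replicates 1 to 4. The groups did not overlap, but Ectoderm replicate 3 lay close below the lowest AER array, while the other Ectoderm arrays lay more than 1 unit below it. Cyp26b1 was 2.29-fold higher in AER (95% CI 1.43 to 3.68; log2 difference 1.20 ± 0.30, SE; adjusted p = 0.0288, limma). The adjusted p was 0.000910 without Ectoderm replicate 3. Leaving out any other array lost the call. The adjusted p was 0.0661, 0.0570 and 0.0846 without AER replicates 1, 2 and 3, and 0.0698, 0.0787 and 0.0800 without Ectoderm replicates 1, 2 and 4. The call was also lost with Ectoderm replicates 2 and 4 averaged (0.0781) and with no filter on dim probes (0.0696). It held with normexp background correction (1.41, adjusted p = 0.00204), with quantile normalization (1.51, 0.00627) and in the authors' processed values (1.695, 0.00111). With each array centred on surface epithelium genes, which lowers every difference by about the same amount and moves the median of all genes to -1.84, Cyp26b1 turned to -0.56 (adjusted p = 0.127) and Cyp26a1 was 0.41 (adjusted p = 0.287). These were the 2 members with a positive call, and under this centring neither kept it.

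In the promoter windows searched, Cyp26a1 and Rarb were the members with a complete retinoic acid response element of the DR5 kind. This is a direct repeat of a hexamer (AGGTCA, the variant AGTTCA, the variant GGGTCA or the variant GGTTCA) with 5 bases of any kind between the copies. Windows of 250 bases before to 50 after the start were taken from RefSeq (GRCm38.p6), which held 11 windows for 7 of the 10 genes. Rdh10, Aldh1a3 and Crabp2 had no window and were not searched. Both strands were searched, and 32 of 32851 windows of all genes, or 0.0974%, held a DR5 match. The stretches of 120 bases just before the start are shown because these genes differed in opposite directions, with the matching hexamers in capitals.
Rarb: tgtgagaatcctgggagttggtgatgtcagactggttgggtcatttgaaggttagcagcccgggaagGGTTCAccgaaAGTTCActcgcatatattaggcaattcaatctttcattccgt
Cyp26a1: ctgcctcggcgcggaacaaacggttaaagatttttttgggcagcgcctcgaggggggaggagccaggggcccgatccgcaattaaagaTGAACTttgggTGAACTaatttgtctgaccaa
The Rarb stretch is chr14:16575477-16575596 on the minus strand, and its match runs from -53 to -37 on the strand of the gene. The Cyp26a1 stretch is chr19:37697688-37697807 on the plus strand, and its match, from -32 to -16, reads on the opposite strand, so that the capitals show its complement. The spelled-out matches were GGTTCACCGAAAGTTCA for Rarb and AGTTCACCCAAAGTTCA for Cyp26a1, and both end in the hexamer AGTTCA. No member window held the same hexamers spaced by 1 base (DR1, in 0.222% of all windows) or 2 bases (DR2, in 0.268%). The 32 windows belong to 31 genes, of which 7 were tested here, with 2 higher and 1 lower in AER. Over all genes tested, 7.03% were higher and 8.65% lower. Cyp26a1 and Rarb are among the called genes of this count, so it is no separate result. Blvrb, Cfap45, Hbb-y and Ppbp did not pass. Besides the members the third was Prokr2, a G protein-coupled receptor gene, at 2.79 (adjusted p = 0.0176), named after its value was seen. A match is a string of letters in this window and was not measured as a bound site.

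All 3 synthesis genes were lower in AER. Rdh10 encodes the retinol dehydrogenase that makes retinaldehyde, and its log2 signal was -1.59, -2.01 and -1.52 on AER replicates 1 to 3, against -0.90, -0.71, -1.04 and -0.60 on Ectoderm replicates 1 to 4. The groups did not overlap, and they were spread about equally, with an SD of 0.26 (n = 3) in AER and 0.20 (n = 4) in Ectoderm. In AER, Rdh10 was 1.86-fold lower (95% CI 1.39 to 2.48; log2 difference -0.89 ± 0.18, SE; adjusted p = 0.0114, limma). With normexp background correction and its offset of 50 the log2 difference was -0.51 (adjusted p = 0.0510), against -0.89 as reported.

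Aldh1a2, which encodes the enzyme that makes most retinoic acid in the early mouse embryo, read -0.75, -1.83 and -2.33 on AER replicates 1 to 3, against 0.80, 0.18, 0.038 and 0.17 on Ectoderm replicates 1 to 4 (log2). AER replicate 1 stood highest in its group, and it was still below the lowest Ectoderm array. Aldh1a2 was 3.81-fold lower in AER (95% CI 2.16 to 6.74; log2 difference -1.93 ± 0.36, SE; adjusted p = 0.00753, limma). The difference was -1.08 within slide row 1, which held AER replicate 1, and -2.25 within slide row 2, each with a single array in 1 of the groups. In the authors' processed values it was -1.26 (adjusted p = 0.0152).

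Aldh1a3, whose enzyme makes retinoic acid in surface and facial epithelia of the mouse, was close to background. Its log2 signal was -5.22, -4.83 and -5.19 on AER arrays, against -4.60, -3.54, -4.11 and -3.03 on Ectoderm arrays, and it was well above background on 1 of 3 AER arrays (replicate 2) and on 2 of 4 Ectoderm arrays (replicates 2 and 4). The fitted difference was -1.26 (95% CI -2.05 to -0.47; adjusted p = 0.0411, limma), and it was -0.41 with normexp (adjusted p = 0.171) and -0.30 in the authors' values (adjusted p = 0.206). The call held without Ectoderm replicate 1 (adjusted p = 0.0124) and was lost without any other array. The adjusted p was 0.0997, 0.0719 and 0.101 without AER replicates 1, 2 and 3, and 0.103, 0.0522 and 0.0717 without Ectoderm replicates 2, 3 and 4. With Ectoderm replicates 2 and 4 averaged the call was lost too (adjusted p = 0.0852).

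**Figure D2:**
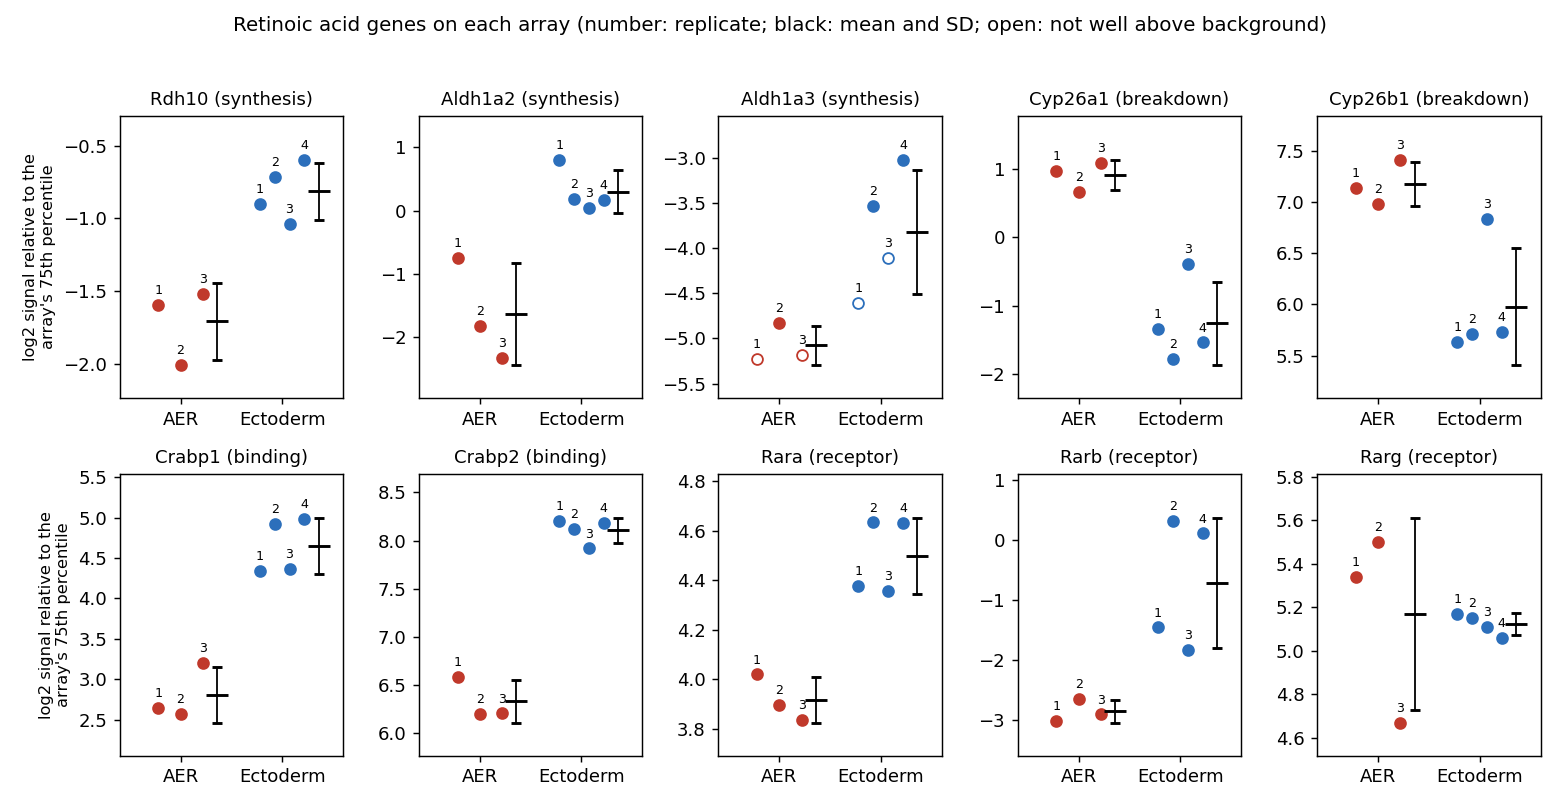
Log2 signal of each gene on each array, relative to the array's 75th percentile, with AER left and Ectoderm right in each panel. Points are arrays with their replicate number, black marks are the mean and SD, and open points were not well above background. The groups overlap for Rarg alone, and Ectoderm replicate 3 lies next to the AER for Cyp26a1 and Cyp26b1.

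Both binding protein genes were lower in AER. Crabp2 encodes the carrier that hands retinoic acid to the nuclear receptors. It read 6.59, 6.2 and 6.21 on AER arrays, against 8.20, 8.12, 7.92 and 8.19 on Ectoderm replicates 1 to 4 (log2). The gap of over 1 unit between the groups was wider than either group's range, which was 0.39 in AER and 0.28 in Ectoderm. Crabp2 was 3.43-fold lower in AER (95% CI 2.66 to 4.42; log2 difference -1.78 ± 0.16, SE; adjusted p = 0.000160, limma), the smallest adjusted p of the 10 genes. It stayed past the threshold under all 22 other settings tried, with differences from -3.54 to -1.46.

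Crabp1, which encodes the carrier linked to retinoic acid turnover in the cytoplasm, read 2.64, 2.57 and 3.20 on AER arrays, against 4.34, 4.92, 4.37 and 4.99 on Ectoderm replicates 1 to 4 (log2). All Ectoderm arrays lay above all AER arrays, with replicates 2 and 4 as the higher pair. In AER, Crabp1 was 3.6-fold lower (95% CI 2.47 to 5.25; adjusted p = 0.00112, limma), and past the threshold under 21 of 22 other settings, the exception being slide row 1 alone, with a single AER array (-1.90, adjusted p = 0.0553). The Crabp1 and Cyp26a1 probes are shown as the sequences that read an opposite pair of differences, both on the plus strand of mm9, at chr9:54616192-54616251 and chr19:37775566-37775625.
Crabp1: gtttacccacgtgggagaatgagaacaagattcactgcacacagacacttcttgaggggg
Cyp26a1: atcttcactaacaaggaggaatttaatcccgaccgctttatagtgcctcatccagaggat
Positions are those in the probe annotation of the files, and the exon under each probe was not looked up.

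Of the receptor genes, Rarb and Rara passed the test and Rarg did not. Whether their differences differ from each other was not tested, and the 95% intervals of Rara and Rarg overlap. Rarb, the receptor gene whose transcription retinoic acid itself raises, read -3.01, -2.64 and -2.90 on AER replicates 1 to 3, against -1.45, 0.32, -1.82 and 0.11 on Ectoderm replicates 1 to 4 (log2). The AER arrays were tight, with a range of 0.37, while the Ectoderm arrays spread over 2.14, the widest range of the 10 genes in that group. Ectoderm replicates 2 and 4 were high, and replicates 1 and 3 were nearer to the AER. Rarb was 4.40-fold lower in AER (95% CI 1.96 to 9.88; log2 difference -2.14 ± 0.51, SE; adjusted p = 0.0239, limma). Leaving out AER replicate 1, 2 or 3 ended the call (adjusted p = 0.0687, 0.0628 and 0.0650), as did leaving out Ectoderm replicate 4 (0.0577), and the difference was -1.35 in the authors' values (adjusted p = 0.0423). The file names give Ectoderm replicates 2 and 4 the same number, and with them averaged as 1 sample the difference was -1.83 (adjusted p = 0.0522).

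Rarb had 3 probes, all on the minus strand of chromosome 14 of mm9. The brightest, at chr14:17263367-17263426, gave the values above. A second at chr14:17264648-17264707 is shown because it reads the same transcript elsewhere.
Rarb: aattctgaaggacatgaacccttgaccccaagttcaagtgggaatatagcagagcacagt
It was not well above background on any AER array (-4.82, -5.15 and -5.00, log2). On Ectoderm replicates 1 to 4 it read -4.06, -2.93, -4.33 and -2.97, well above background on replicates 2 and 4. Each AER array was set to its dimmest signal called well above background where the probe was lower still, which put AER 2.16-fold lower. The Ectoderm mean used here takes in replicates 1 and 3, not well above background themselves, so 2.16 is not a strict lower bound. This probe was above background on 2 of 7 arrays, so it was not tested. The remaining probe, at chr14:17651424-17651483 and 388 kb from the first, was not well above background on any array.

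Rara, the broadly expressed receptor, read 4.02, 3.90 and 3.84 on AER arrays, against 4.38, 4.63, 4.36 and 4.63 on Ectoderm replicates 1 to 4 (log2). The groups did not overlap but lay close. Rara was 1.5-fold lower in AER (95% CI 1.19 to 1.89; log2 difference -0.58 ± 0.15, SE; adjusted p = 0.0301, limma). Its other probe gave -0.58 with adjusted p = 0.0663 over all probes, where 15% of 28280 probes were called. The call was lost without AER replicate 3 (adjusted p = 0.0715), without Ectoderm replicates 1, 2 or 4 (0.0551, 0.0938 and 0.102) and under every scaling or background alternative except epithelial centring, with differences of -0.35 under normexp and -0.23 in the authors' values (adjusted p = 0.2 and 0.34). With Ectoderm replicates 2 and 4 averaged the call was lost too (adjusted p = 0.0920). The 2 Rara probes lie at chr11:98836197-98836256 and chr11:98835350-98835409.

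Rarg, the receptor known from embryonic skin and cartilage, was the member that did not pass. It read 5.34, 5.50 and 4.67 on AER replicates 1 to 3, against 5.17, 5.15, 5.11 and 5.06 on Ectoderm replicates 1 to 4 (log2). The Ectoderm arrays fell inside the AER range, with an SD of 0.050 (n = 4) against 0.44 (n = 3) in AER. The difference was 0.048, with a 95% CI of -0.42 to 0.52 (adjusted p = 0.894, limma). Its sign turned under normexp (-0.37) and in the authors' values (-0.24). Centring on epithelial genes, which lowers every difference by 1.76, put the Rarg difference at -1.71 (adjusted p = 3.5e-05). Under that centring 0 members were called higher and 8 lower, and 20067 of all 20826 genes were called.

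**Figure D3:**
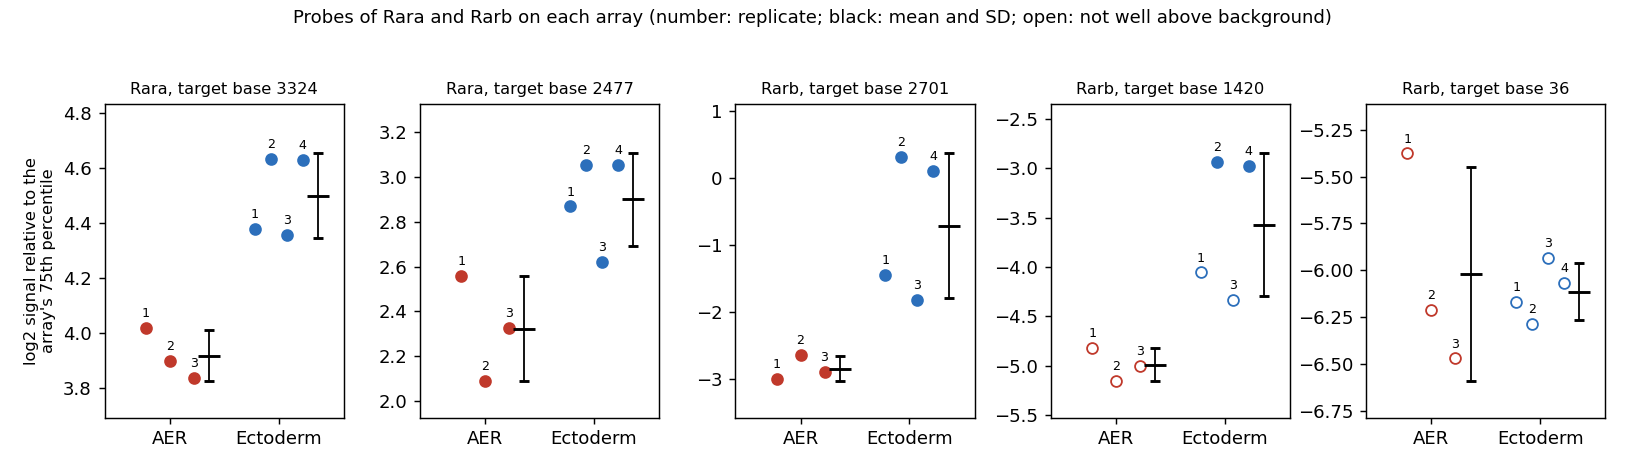
Log2 signal of both Rara probes and all 3 Rarb probes on each array, relative to the array's 75th percentile, with AER left and Ectoderm right. Panels are named by the start of the probe in its target sequence, numbers are replicates, black marks are the mean and SD, and open points were not well above background. The first 2 Rarb probes place Ectoderm replicates 2 and 4 above replicates 1 and 3, and the last is dim on all 7 arrays.

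A list of 24 other retinoid genes covered transport, storage, oxidation, RXR partners and cofactors, and 19 of them were tested. Of these 0 rose and 5 fell, and 14 did not pass, against the 15.7% of all genes called, with a median of -0.24. Stra6, which encodes the membrane receptor that takes up retinol, had the largest difference of the list. It read 0.056, -0.50 and 0.014 on AER replicates 1 to 3, against 3.71, 3.43, 2.85 and 3.51 on Ectoderm replicates 1 to 4 (log2). The groups lay over 2 units apart, and AER had 11.5-fold less Stra6 (95% CI 7.86 to 16.7; adjusted p = 4.09e-05, limma).

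Rbp4, for the carrier of retinol in blood that STRA6 recognises, followed the same direction and fell 2.72-fold (95% CI 1.99 to 3.73; adjusted p = 0.00157). The nuclear receptor coactivator gene Ncoa1 fell 3.04-fold (adjusted p = 0.00328). The retinol dehydrogenase gene Rdh14 fell 1.69-fold (adjusted p = 0.0372), a call lost without AER replicates 1 or 2 (0.0534 and 0.0589) and without Ectoderm replicates 1, 2 or 4 (0.0842, 0.102 and 0.0968). Rdh14 passed under 6 of 22 other settings, and not under normexp (0.0770), quantile normalization (0.0533) or in the authors' values (0.0740).

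The RXR genes, whose proteins pair with the RARs, did not pass: Rxra differed by 0.20, Rxrb by 0.074 and Rxrg by -0.31 (log2; adjusted p = 0.545, 0.79 and 0.372). Dhrs3, for an enzyme that turns retinaldehyde back into retinol, differed by 0.25 (95% CI -0.48 to 0.98) and read highest on Ectoderm replicate 3, at 4.02 against 2.44 to 3.16 on the other Ectoderm arrays. Aldh1a1, the remaining gene of the retinaldehyde dehydrogenase family, was above background on 3 of 7 arrays and differed by -0.24 (adjusted p = 0.455). Cyp26c1, the third CYP26 gene, was not well above background on any array, nor were Lrat and Bco1, and Dhrs9 and Rdh1 were above it on too few to be tested.

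Genes known to respond to retinoic acid gave a mixed picture. Of 13 listed, 9 were tested, 1 rose, 3 fell and 5 did not pass, with a median of -0.65. Over all genes 7.03% rose, 8.65% fell and the median was -0.083. Hic1, a transcriptional repressor gene, read -4.87, -1.44 and -1.47 on AER arrays, against 4.38, 4.47, 3.46 and 4.47 on Ectoderm arrays (log2). It was not well above background on AER replicate 1, the lowest of these values. The fitted log2 difference was -6.79 (95% CI -8.55 to -5.02; adjusted p = 0.000566, limma), and it was -5.65 without AER replicate 1 and -5.30 with normexp, so its size rests in part on an array that did not measure the gene above background. The orphan receptor genes Nr2f1 and Nr2f2 fell 8.01-fold (95% CI 4.84 to 13.3; adjusted p = 0.000393) and 2.83-fold (95% CI 2.19 to 3.66; adjusted p = 0.000421). The homeobox gene Cdx1 was 2.49-fold higher in AER (adjusted p = 0.00448), and turned to -0.45 on the log2 scale under epithelial centring and was 0.56 under normexp.

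Meis1 and Meis2, homeobox genes of the proximal limb that retinoic acid raises, differed by 0.093 and -0.65 (log2; adjusted p = 0.907 and 0.187). Meis1 read 2.48, 2.93 and 3.28 on AER arrays, against 2.04, 3.67, 2.01 and 3.48 on Ectoderm replicates 1 to 4. Ectoderm replicates 2 and 4 were the high pair for Meis1, as they were for Rarb. They were also the high pair for markers outside these lists, among them Sox10, Cdh5 and Krt5. The pattern is therefore not particular to retinoid genes. These arrays share a number in their file names, and whether they are separate pools could not be settled. Tgm2, for a transglutaminase, differed by 0.35 (adjusted p = 0.324). Hoxb1, Stra8 and Ptgs2 were not well above background on any array.

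**Figure D4:**
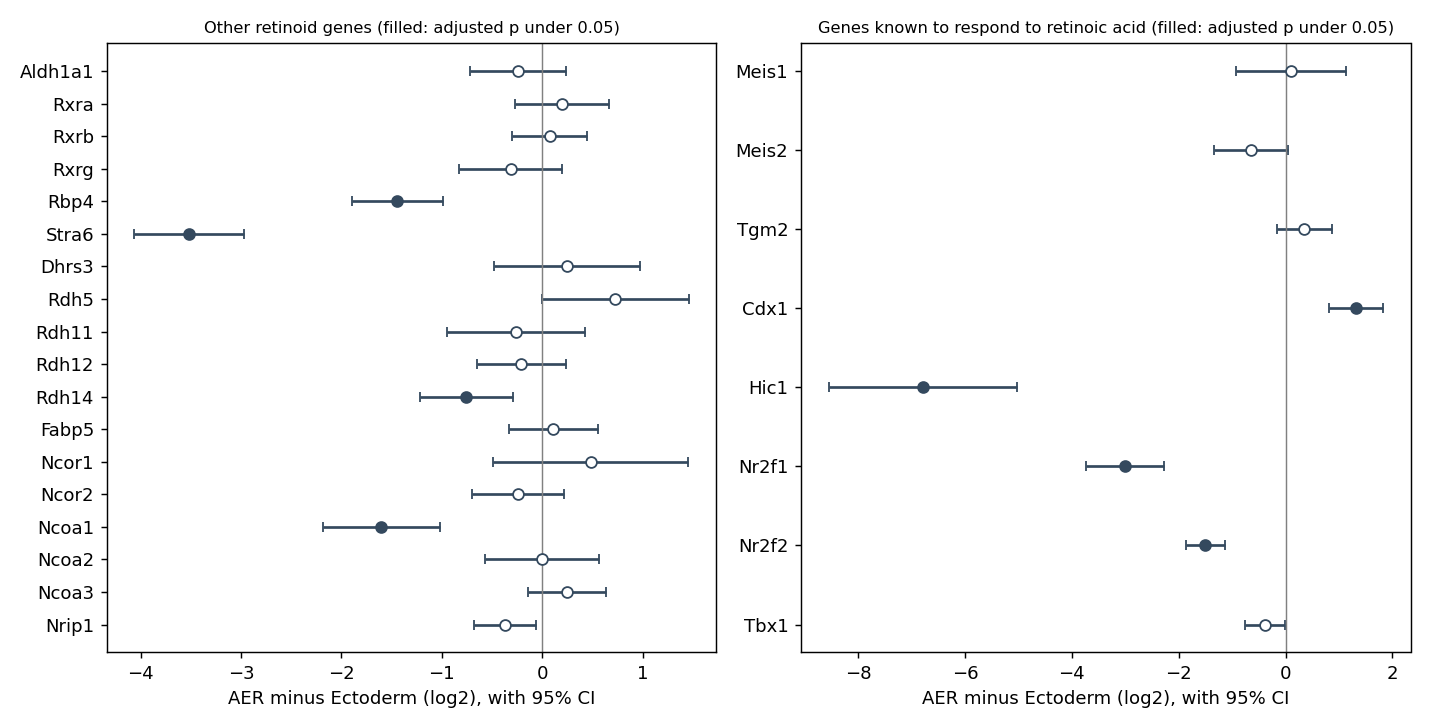
Difference between AER and Ectoderm (log2, 95% confidence interval) for other retinoid genes (left) and genes known to respond to retinoic acid (right). Filled points had an adjusted p below 0.05. Stra6, Rbp4, Ncoa1 and Rdh14 lie left of 0 among the first, and Hic1, Nr2f1 and Nr2f2 lie left and Cdx1 right of 0 among the second.

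Ectoderm replicate 3, the Ectoderm array with the most Fgf8, was also the Ectoderm array nearest to the AER mean for 7 of the 9 members that passed. Across all 3266 genes called, it was the nearest for 47.8%, Ectoderm replicate 1 for 23% and Ectoderm replicates 2 and 4 for 14.5% and 14.7%. Without it, the differences of Cyp26a1, Cyp26b1 and Rarb were 2.47, 1.48 and -2.51, each larger in size than with it. Aldh1a3 lost its call without it (adjusted p = 0.0522), and the other 8 members that passed kept theirs.

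AER and Ectoderm arrays lay in each of the 2 slide rows, and the sign of the 9 called members was the same within each row as overall. With the row as a block, 7 members passed, the calls lost being Cyp26b1 (1.26, adjusted p = 0.0550) and Rara (-0.59, adjusted p = 0.0780). Each row taken alone leaves 1 group with a single array, whose spread is assumed to be like that of the other group, so the within-row values are given for their size. In row 1, with AER replicate 1 and Ectoderm replicates 1 to 3, Rarb differed by -2.02 and Cyp26a1 by 2.15. In row 2, with AER replicates 2 and 3 and Ectoderm replicate 4, Rarb differed by -2.88 and Cyp26a1 by 2.42.

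**Figure D5:**
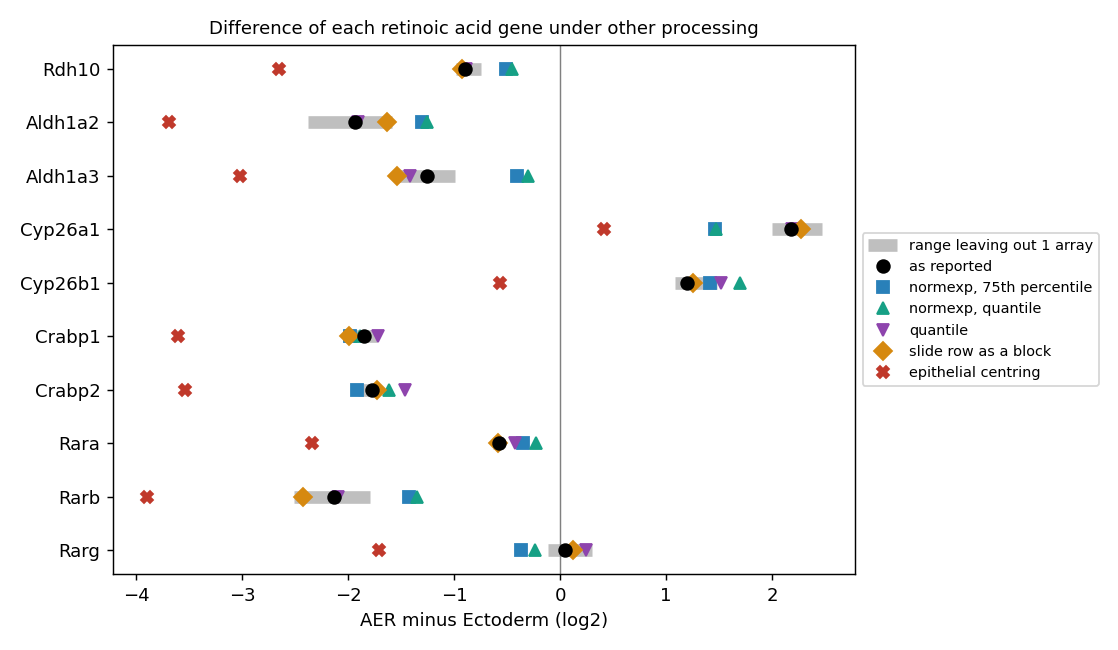
Difference between AER and Ectoderm (log2) for each gene as reported (black) and under 5 other settings, with a grey bar for the range over leaving out each of the 7 arrays in turn. Of the points shown, epithelial centring lies lowest for every gene and turns the sign of Cyp26b1 and Rarg, and both normexp settings turn that of Rarg.

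For each gene the most similar profile over the 7 arrays was sought among genes with a RefSeq symbol, as the smallest root mean square distance between log2 profiles centred on their means. Cyp26a1 lay nearest to Dkk1, a secreted WNT antagonist gene (distance 0.201), and Cyp26b1 to Slc16a7, a monocarboxylate transporter gene (0.0956). Crabp1 lay nearest to Astn1 (0.127), Crabp2 to Septin6 (0.111), Rarb to Lrrc32 (0.159), Aldh1a2 to Lgi3 (0.194) and Aldh1a3 to Phyhd1 (0.155). Rdh10 lay nearest to Efnb3, an ephrin gene (0.0430), Rara to Pnck (0.0627) and Rarg to Ckap2 (0.0397). Small differences between groups make small distances by construction, so these values rank neighbours within 1 gene and not between genes.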

How the data were processed

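Per the labels' protocols, 75 ng of total RNA per sample was labelled with Cy3 and hybridised to 1-colour Agilent arrays, all on 1 slide. The deposited scanner files hold the processed signal, an intensity that the Feature Extraction software had detrended across each array, per the file headers, plus the mean spot and local background intensity. Other columns of the deposited files are flags per spot for signal above background, saturation and outliers. The deposited matrix holds the authors' log2 values, which normexp (offset 50) with quantile normalization matched to within 0.000108. The submitters' processing notes name limma.

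Control spots (leaving 59305 of 62976) and outlier spots were left out, spots of a probe were averaged on the log2 scale, and each array's 75th percentile (256.7 to 563 signal units) was subtracted. No spot was saturated, and 47.6% to 54.2% of probes were above background. Across genes, arrays correlated at 0.946 to 0.968 between groups and 0.980 to 0.995 within them. Probes above background on at least 3 of 7 arrays were kept (28280 of 55681), and the brightest probe stood for a gene. Groups were compared with limma 3.58.1 in R 4.3.3 (lmFit, eBayes, two-sided, no covariate) over 20826 genes, and again over all kept probes. The fit was tested on simulated data. Files were read with pandas 2.3.3 and the data.table package, version 1.17.8.

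The members and lists were chosen with earlier results of these data known. The replicates were pools of tissue from several mice, per the series design text, and their number limits the precision. Genes named are all members, called genes of the 2 further lists, the nearest profile of each member, and marker genes where a result touches them. A few genes of the further lists enter the counts and are not reported here. Alternatives covered background correction, scaling, filter, probe choice, slide row, array weights, centring on 12 epithelial genes and leaving out each array.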

Additional observations from a re-analysis of the deposited data

Results flagged for a closer look

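In 2 of 19 genes checked, 1 Ectoderm array stood apart from the other 3 by Dixon's criterion at the 95% level, and chance alone marks about 1 in 20 such groups. Cyp26b1 read 6.98 to 7.41 in AER, and in Ectoderm 6.83 on replicate 3 and 5.63 to 5.74 otherwise (log2). Hic1 read -4.87 to -1.44 in AER, and in Ectoderm 3.46 on replicate 3 and 4.38 to 4.47 otherwise. Both values lie towards the AER level of their gene, and Fgf8 on the same array read 2.20.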

How the results depend on the processing

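The 9 called members kept their sign over 22 other settings (21 for Aldh1a3, which the filter on all arrays left out), apart from Cyp26b1 under epithelial centring (-0.56). Rarg, not called as reported, turned negative with normexp and the 75th percentile (-0.37), normexp and quantile normalization (-0.24), the authors' values (-0.24), array weights (-0.073) and epithelial centring (-1.71), and ranged from -0.12 to 0.30 when 1 array was left out. Cdx1 was -0.45 under epithelial centring. Of 10 members, 9 passed as reported, 5 with no filter on dim probes, which adjusts over more genes, 5 with Ectoderm replicates 2 and 4 averaged, 1 within slide row 1, and 5 to 8 with 1 array left out. The same numbers of member probes (5, 5, 1 and 5 to 8) passed. Other retinoid genes passed in 1 and 3 cases within slide rows 1 and 2 and in 19 under epithelial centring, and 4 to 5 with 1 array left out. Response genes passed in 2 cases within slide row 1 and in 8 under epithelial centring, and 4 to 5 with 1 array left out. Over all genes, 653 and 1390 passed within the rows, 20067 under epithelial centring, whose median moved to -1.84, and 2199 to 3275 with 1 array left out. With no filter on dim probes 2390 of 36373 genes passed, and with Ectoderm replicates 2 and 4 averaged 2267 of 20826. The higher share of all calls was 44.8%, and 57.4% with the 75th percentile taken over the probes that all arrays detected.

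With the replicate number as a block over replicates 1 to 3, 7 members, 4 other retinoid genes, 4 response genes, 7 member probes and 2444 genes passed. Rara (adjusted p = 0.166), Rdh10 (0.0686) and Rdh14 (0.122) did not. Deviations of arrays with the same number correlated at -0.0311, 0.194 and 0.132. AER replicates 2 and 3 correlated best with the Ectoderm array of their own number, and AER replicate 1 with Ectoderm replicate 3 (0.182). These correlations do not settle whether the numbers pair the samples, and the numbers were not taken as pairs in the reported fit. Aldh1a3 and a Rarb probe were above background on only 3 and 2 of 7 arrays.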
